A study of Rattus norvegicus with 8 samples.

Results

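The interleukin genes, taken as every gene whose RefSeq symbol starts with Il and a digit, comprised 57 genes on the array, measured by 73 probes. A probe was kept where the scanner software marked it as well above background on 3 or more arrays out of 8, or on the in vitro one. That left 48 probes and 35 genes, of 21313 kept genes in all: 12 ligands, 20 receptors or receptor chains and 3 secreted antagonists (Il1rn, Il18bp and Il22ra2). RNA came from ATSC, mesenchymal stem cells grown after collagenase digestion of subcutaneous adipose tissue of Sprague-Dawley rats, all male, and each sample was hybridised to 1 single-colour Agilent Whole Rat Genome array. The IRI group holds 3 samples of ATSC on liver after ischemia-reperfusion injury, the damage that follows when blood supply is cut off and restored. The non-IRI group holds 4 samples of ATSC on liver without that injury, and the in vitro group holds 1 sample of cultured ATSC, which gives basal expression. The labels name no time after injury, no animal for a sample and no step that sorts ATSC from cells of the liver, so that p-values measure the spread between these samples, which may be technical.

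Interleukins are secreted proteins that carry signals between leukocytes and other cells. Each binds a receptor of 1 or more chains, and several chains, such as Il6st (gp130), serve many ligands. IL-1 family cytokines signal through MyD88 and NF-kappaB, most of the others through JAK kinases and STAT factors, and IL-1beta and IL-18 are made as precursors that caspase-1 cleaves. Decoy receptors and secreted antagonists bind a ligand, or hold a receptor, without passing the signal on.

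The stretches upstream of 4 ligand genes are shown because these genes cover the patterns described below. Il1b and Il1a were higher on each IRI array than on any non-IRI array, Il18 was high on every liver array and not above background in vitro, and Il6 was highest in vitro. Each line gives the 250 bases before the RefSeq transcription start, 5′ to 3′ on the gene's strand, in build GRCr8; capitals mark matches to the motifs searched.
Il1b, chr3:137036582-137036831, minus strand: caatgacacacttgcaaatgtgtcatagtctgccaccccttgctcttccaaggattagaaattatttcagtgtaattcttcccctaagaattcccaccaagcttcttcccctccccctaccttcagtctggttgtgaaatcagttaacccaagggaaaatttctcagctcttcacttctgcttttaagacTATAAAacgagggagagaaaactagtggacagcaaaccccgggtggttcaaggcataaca
Il1a, chr3:136990018-136990267, minus strand: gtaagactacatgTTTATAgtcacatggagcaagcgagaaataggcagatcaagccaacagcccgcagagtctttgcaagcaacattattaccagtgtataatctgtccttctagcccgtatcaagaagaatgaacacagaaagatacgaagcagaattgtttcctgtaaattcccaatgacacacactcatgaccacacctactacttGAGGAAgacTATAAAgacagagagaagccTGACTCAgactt
Il18, chr8:59801822-59802071, plus strand: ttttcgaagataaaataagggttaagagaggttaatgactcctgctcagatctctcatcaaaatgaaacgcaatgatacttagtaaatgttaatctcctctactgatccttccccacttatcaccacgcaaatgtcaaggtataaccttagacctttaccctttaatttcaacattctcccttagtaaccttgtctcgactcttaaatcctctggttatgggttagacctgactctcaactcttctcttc
Il6, chr4:5894576-5894825, minus strand: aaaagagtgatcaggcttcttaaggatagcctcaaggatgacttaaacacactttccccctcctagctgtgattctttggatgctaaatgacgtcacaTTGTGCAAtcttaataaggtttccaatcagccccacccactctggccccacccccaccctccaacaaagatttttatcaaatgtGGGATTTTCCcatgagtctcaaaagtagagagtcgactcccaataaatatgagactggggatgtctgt
Motifs were searched on both strands, and none was excluded for overlapping another. The NF-kappaB consensus, which has positions open to more than 1 base, is given by name alone. The C/EBP motif was TTGCNNAA, a site of factors that act in myeloid and liver cells. The AP-1 motif, of Fos and Jun proteins, was TGANTCA. For STAT factors the letters were TTCNNNGAA, and for PU.1, an ETS factor of myeloid cells, GAGGAA. The TATA box was searched as TATAAA. In Il1b the capitals are 1 TATA match, 60 to 55 bases before the start. Il1a held an AP-1 match, a PU.1 match and 2 TATA matches, the nearer of these 32 to 27 bases before the start. Il6 held a C/EBP match 152 to 145 bases before the start and an NF-kappaB match 68 to 59 bases before it, and Il18 held none of the 6. Of 27 kept interleukin genes with a RefSeq promoter entry, 2 held the NF-kappaB motif, 4 C/EBP, 3 AP-1, 2 STAT, 5 PU.1 and 6 TATA. Over all 33469 promoter entries of the same length, the shares were 3.54%, 9.22%, 6.34%, 7.67%, 23.3% and 12.9%, in the same order. A match is a stretch of letters, not a measured binding site.

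Levels are log2 values of the processed signal relative to the 75th percentile of the array, so that 0 is the signal of that percentile. A level of 1 probe is not compared with that of another probe as an amount of RNA. Between 53.5% and 59.7% of spots were well above background per array, and no spot was saturated. Of the 35 genes, 32 to 33 were above background on the IRI arrays, 33 to 34 on the non-IRI arrays and 20 in vitro. The 3 IRI arrays and the in vitro array lie on 1 slide and the 4 non-IRI arrays on another, so that IRI against non-IRI and slide cannot be told apart. The list of mesenchymal stromal cell markers had a high mean on all arrays: its 18 genes averaged 3.76 to 3.93 in IRI, 3.06 to 4.13 in non-IRI and 4.05 in vitro. Single genes differed widely. Col3a1 averaged 9.55 in IRI and 9.64 in non-IRI, with 9.75 in vitro. Thy1 averaged -1.58 and -0.53, with 0.55 in vitro, and Eng 0.12 and -0.59, with -2.31 in vitro. Ly6al was not above background in vitro. The list cannot tell ATSC from other stromal cells. Its lowest mean, on non-IRI 1, included Vcam1 at -6.64, against 4.27 to 5.14 on the other non-IRI arrays. Leukocyte marker lists averaged higher on every liver array than in vitro, although 3 of 14 macrophage and Kupffer cell genes and 3 of 17 T and NK cell genes were above background in vitro too. The filter had kept the other genes of these lists through the liver arrays, which favours higher levels there. Gzmb, of the T and NK cell list, was at 0.12 in vitro, above all 7 liver arrays. Ptprc (CD45) was at -1.12 to -0.94 in IRI, -1.92 to -1.10 in non-IRI and -6.08 in vitro. The 14 macrophage and Kupffer cell genes averaged 3.52 to 4.02 in IRI, 2.49 to 3.74 in non-IRI and -5.07 in vitro, and the 17 T and NK cell genes -0.32 to 0.26, -0.64 to 0.37 and -5.75 in the same order. In bulk RNA, fewer cells of a type and less RNA per cell cannot be told apart.

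**Figure D1:**
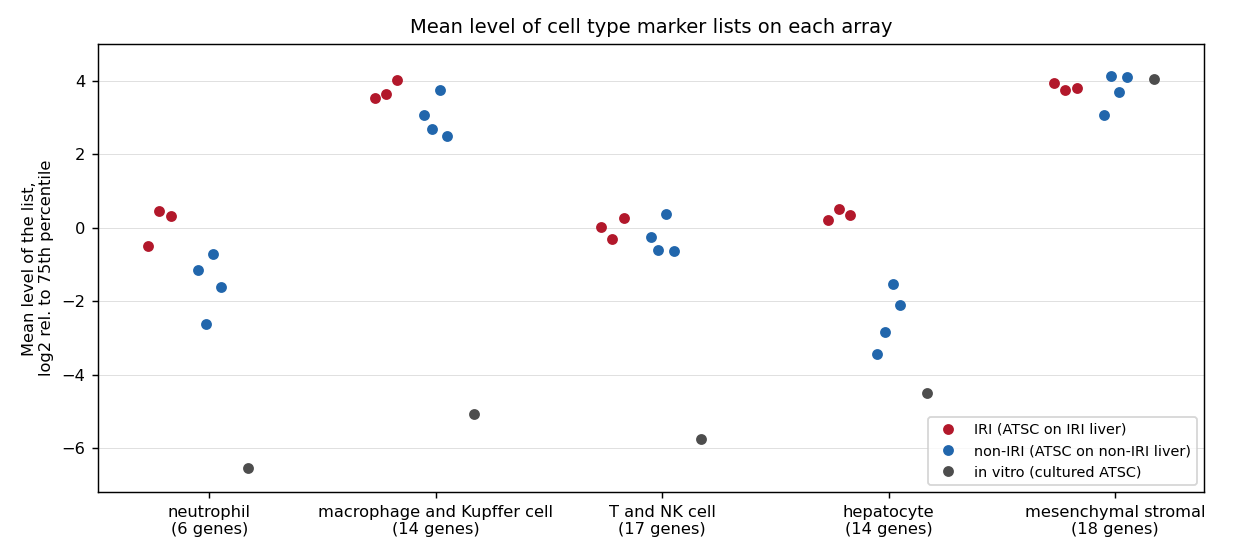
Mean level of 5 cell type marker lists (x axis) on each array, in log2 units relative to the 75th percentile (y axis). Each point is 1 array: red, IRI (3 arrays); blue, non-IRI (4 arrays); grey, in vitro (1 array). The neutrophil, macrophage and T and NK cell lists are at -6.55, -5.07 and -5.75 in vitro, below every liver array, while the mesenchymal stromal list is at 4.05 in vitro, within the range of the liver arrays.

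Among the ligands and antagonists, Il1rn, the IL-1 receptor antagonist, was bright on all arrays, and Il33, an alarmin of stromal cells, was bright on liver and in culture alike. Il1rn measured 6.09, 5.70 and 5.58 on IRI arrays 1 to 3, against 5.51, 4.97, 5.70 and 5.73 on non-IRI arrays 1 to 4, with 5.75 on the in vitro array. Il33 measured 3.67, 4.08 and 3.94 on IRI arrays 1 to 3, against 3.51, 4.72, 4.35 and 4.05 on non-IRI arrays 1 to 4, with 4.28 on the in vitro array. Over the 7 liver arrays together, the values of both genes lay on both sides of the in vitro value; all 4 non-IRI arrays were below it for Il1rn, and all 3 IRI arrays for Il33. By each gene's brightest kept probe, the highest receptor signals belonged to Il6st, Il1rl1 (the IL-33 receptor, ST2) and Il11ra1 (the IL-11 receptor). Each was brighter in vitro than on any liver array. Other kept probes of the same genes were dimmer. In non-IRI the dimmest averaged -3.75 for Il6st, -3.37 for Il1rl1, -2.34 for Il1rn and 0.37 for Il33. The 2 kept Il1rl1 probes are assigned to different RefSeq transcripts, so they need not measure the same RNA. Ligands and receptors differed in culture: 4 of 12 ligands (Il33, Il15, Il17b and Il6) and 14 of 20 receptors were above background in vitro. On every IRI array at least 10 ligands and 18 receptors were above background, and on every non-IRI array at least 11 ligands and 19 receptors.

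**Figure D2:**
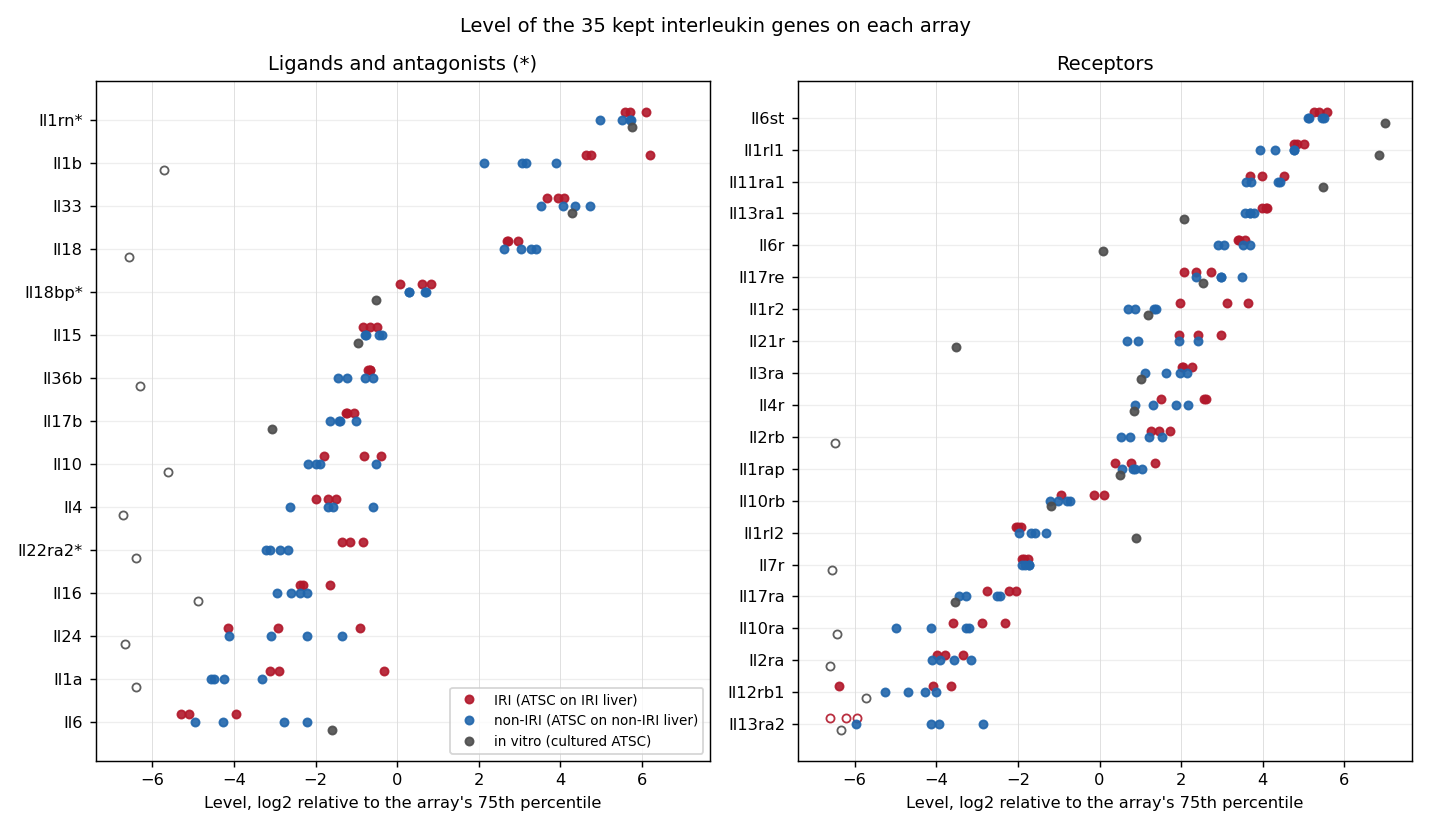
Level of each of the 35 kept interleukin genes on each array, in log2 units relative to the 75th percentile (x axis), with ligands and antagonists (asterisk) on the left and receptors on the right, ordered by mean liver level. Each point is 1 array: red, IRI; blue, non-IRI; grey, in vitro; open points mark a group in which no array was well above background for that gene. Il1b and Il18 are open and near -6 in vitro but above 2 on all liver arrays, and Il6st, Il1rl1, Il11ra1, Il1rl2 and Il6 have the in vitro point to the right of all liver points.

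The first comparison set ATSC on IRI liver against ATSC on non-IRI liver. Il22ra2, a secreted decoy receptor that binds IL-22, rose in IRI; it was the only one of the 35 genes to pass, and 0 fell. Over all 21313 genes tested, 2.99% passed (0.357% rose and 2.64% fell). The genes of the IL-1 system with the largest differences, Il1b, Il1a and the decoy receptor Il1r2, were 3.57 to 4.36 times as high in IRI but did not pass. In the limma fit an unadjusted p under 0.05 was reached by 6 of the 35 genes (Il22ra2, Il1b, Il1a, Il1r2, Il13ra1 and, lower in IRI, Il13ra2), against 14.9% of all genes.

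Il22ra2 (NM_001003404) measured -1.36, -1.17 and -0.83 on IRI arrays 1 to 3, against -2.88, -3.21, -2.69 and -3.11 on non-IRI arrays 1 to 4, with -6.42 on the in vitro array. All IRI arrays lay above all non-IRI arrays, and the in vitro array was not above background. The means were -1.12 ± 0.27 in IRI (SD, n = 3) and -2.97 ± 0.23 in non-IRI (SD, n = 4), a log2 difference of 1.85 ± 0.20 (SE; adjusted p = 0.00312). It passed without each array in turn (adjusted p = 0.00584 to 0.0196) and under the replicate block, a fit with the replicate number as a term (0.04). Under normexp background correction its difference was 0.46 (0.725), a setting in which 0 genes of all those tested passed. With the background of outlier spots set to the median of the array, normexp gave a smaller difference of 0.94 that passed (0.00907). A second Il22ra2 probe of the same transcript was above background on 0 of 8 arrays and was not kept; its difference, -0.37, is between signals below background. Neutrophil markers were also higher in IRI: the 6 kept genes of that list, none of which passed, had a median difference of 1.61. Their mean was -0.49 to 0.44 in IRI, -2.62 to -0.71 in non-IRI and -6.55 in vitro, with 0 of the 6 above background in vitro; their part in the results of this comparison was not tested. The 14 macrophage and Kupffer cell genes had a median difference of 0.72, with 10 higher in IRI, 4 lower and 0 past the test. Single differences in that list ran from -0.25 to 2.36, and its part was not tested either. Hepatocyte markers were higher in IRI as well, with 10 of 14 risen, beside 0.357% of all genes, and a median of 3.15. Their mean was 0.20 to 0.52 in IRI, -3.42 to -1.53 in non-IRI and -4.50 in vitro.

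Il1b (NM_031512) encodes IL-1beta, an inflammatory cytokine of myeloid cells. It measured 4.62, 6.19 and 4.74 on IRI arrays 1 to 3, against 3.15, 2.13, 3.89 and 3.07 on non-IRI arrays 1 to 4, with -5.72 on the in vitro array. The highest non-IRI array lay below the lowest IRI array, and the in vitro array was not above background. The means were 5.18 ± 0.88 in IRI (SD, n = 3) and 3.06 ± 0.72 in non-IRI (SD, n = 4), a difference of 2.12 ± 0.50 (SE; adjusted p = 0.0748). It passed with array weights (adjusted p = 0.0312) and under normexp with the background of outlier spots set to the median of the array (0.048). Its adjusted p was 0.273 with the replicate block, and 0.0578 to 0.198 without each array in turn.

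Il1a (NM_017019), the other IL-1 agonist, which cells also hold on their surface or in the nucleus, measured -2.89, -0.33 and -3.13 on IRI arrays 1 to 3, against -4.48, -4.25, -3.32 and -4.56 on non-IRI arrays 1 to 4, with -6.40 on the in vitro array. The IRI 2 array stood well above the other 2 IRI arrays, and IRI 3 lay just above the highest non-IRI array. It was above background on all 3 IRI arrays and on 2 of the 4 non-IRI arrays. The difference was 2.04 ± 0.67 (SE; adjusted p = 0.198), and 1.15 (0.284) without IRI 2.

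Il1r2 (NM_053953) encodes a decoy receptor that binds IL-1 without signalling. It measured 1.97, 3.12 and 3.64 on IRI arrays 1 to 3, against 0.69, 0.87, 1.39 and 1.33 on non-IRI arrays 1 to 4, with 1.18 on the in vitro array. Here the in vitro level lay within the non-IRI range, so that IRI stood apart from both other groups. The means were 2.91 ± 0.86 in IRI (SD, n = 3) and 1.07 ± 0.34 in non-IRI (SD, n = 4), a difference of 1.84 ± 0.39 (SE; adjusted p = 0.0536). Without IRI 1 the difference was 2.31 and passed (0.00845), and it was 1.47 (0.182) without IRI 3. It also passed with array weights (0.00562), with a trended and robust prior (0.0259), with only probes above background on all 8 arrays (0.0404) and under normexp with outlier backgrounds set to the median (0.0211). In all, Il1r2 passed under 5 of 19 alternatives, among them 1 of the 7 fits that left out an array. Its adjusted p in these limma fits reached 0.361. S100a9 and S100a8, the calprotectin subunits of neutrophils, were higher in IRI by 2.74 (adjusted p = 0.0611) and 2.62 (0.0756).

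Il1rap, Il1rn, Il18 and Il18bp did not pass. Il1rap, the co-receptor of the family, differed by 0.017 ± 0.25 (SE; adjusted p = 0.984), and Il1rn by 0.31 ± 0.24 (SE; adjusted p = 0.606). The 2 kept probes of Il1rn gave differences of -0.17 and 0.31. Il18, which activates lymphocytes for interferon-gamma, measured 2.70, 2.71 and 2.95 on IRI arrays 1 to 3, against 3.29, 3.04, 3.41 and 2.62 on non-IRI arrays 1 to 4, with -6.56 on the in vitro array. Its IRI and non-IRI arrays overlapped, with a difference of -0.30 ± 0.22 (SE; adjusted p = 0.587). Il18bp, the secreted binder of IL-18, measured 0.83, 0.077 and 0.60 on IRI arrays 1 to 3, against 0.29, 0.28, 0.69 and 0.71 on non-IRI arrays 1 to 4, with -0.53 on the in vitro array. These groups overlapped as well, with a difference of 0.0089 ± 0.23 (SE; adjusted p = 0.992).

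Il13ra1 and Il1rl1 completed the 6 genes with every IRI array above every non-IRI array, among the 35, with 0 below. Over all genes without a missing value, 6.56% lay wholly above and 9.26% wholly below. Il13ra1, a chain of the type II IL-4 receptor, measured 4.08, 3.98 and 4.11 on IRI arrays 1 to 3, against 3.57, 3.78, 3.68 and 3.68 on non-IRI arrays 1 to 4, with 2.06 on the in vitro array. Its arrays varied little within a group, and the difference was 0.38 ± 0.14 (SE; adjusted p = 0.251). Il1rl1, the receptor of IL-33, measured 4.78, 4.83 and 5.02 on IRI arrays 1 to 3, against 4.31, 4.77, 4.77 and 3.93 on non-IRI arrays 1 to 4, with 6.84 on the in vitro array. The gap between the lowest IRI array and the highest non-IRI array was small, and the difference was 0.43 ± 0.24 (SE; adjusted p = 0.457).

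**Figure D3:**
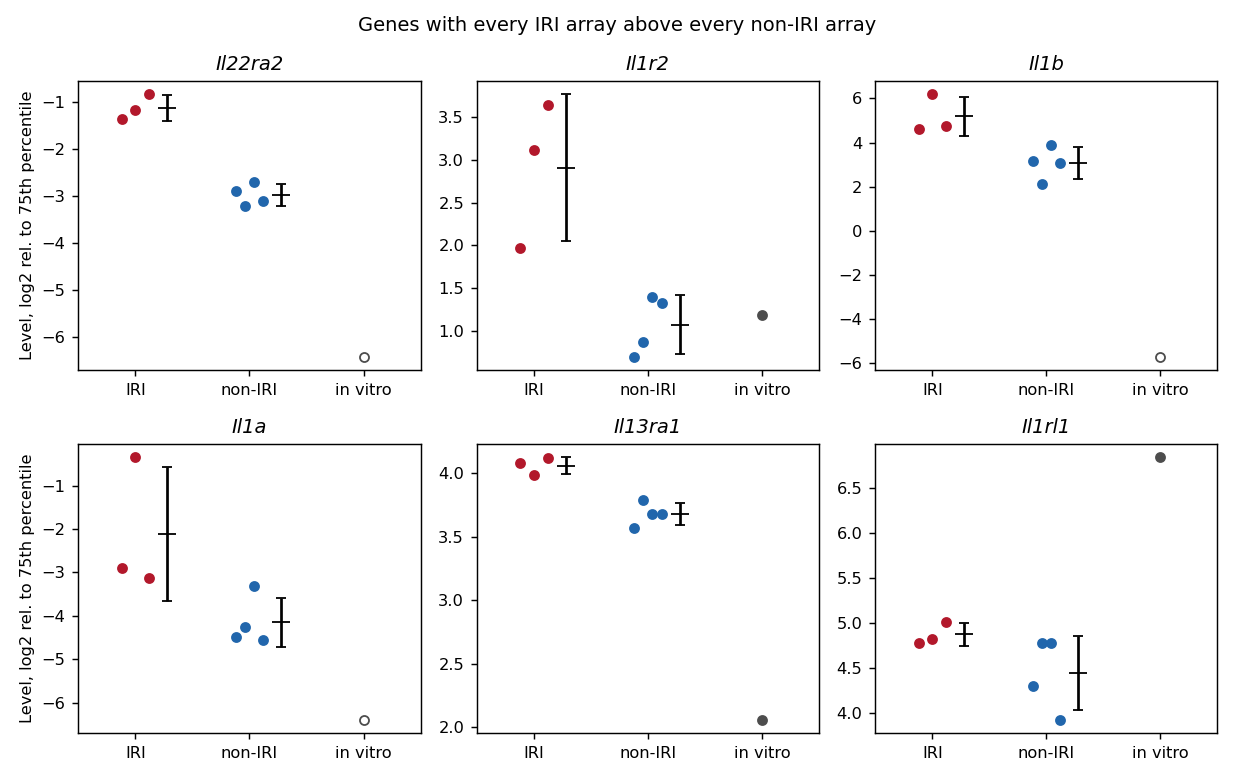
Level on each array of the 6 genes with all IRI arrays above all non-IRI arrays, in log2 units relative to the 75th percentile (y axis, a scale of its own in each panel), by group (x axis). Points are arrays, open where no array of the group was well above background; bars show the mean and SD of the 3 IRI and the 4 non-IRI arrays. Il22ra2 averages -1.12 in IRI and -2.97 in non-IRI, and Il1r2 is at 1.18 in vitro, inside its non-IRI range.

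The other receptors with small unadjusted p-values did not pass. Il13ra2, a decoy receptor for IL-13, measured -5.94, -6.60 and -6.23 on IRI arrays 1 to 3, against -2.85, -3.93, -5.97 and -4.13 on non-IRI arrays 1 to 4, with -6.33 on the in vitro array. No IRI array was above background, against 3 of 4 non-IRI arrays, which put the non-IRI mean at least 2.19-fold higher. Non-IRI 3 lay within the IRI range. The filter had kept Il13ra2 through 3 non-IRI arrays alone, so a lower level in IRI was built into its selection. Its difference was -2.04 ± 0.64 (SE; adjusted p = 0.18), and -2.62 (0.0175), past the test, without non-IRI 3. Il10rb, the shared second chain of IL-10 and IL-22 receptors, measured -0.95, -0.13 and 0.10 on IRI arrays 1 to 3, against -1.01, -1.21, -0.72 and -0.80 on non-IRI arrays 1 to 4, with -1.18 on the in vitro array. Non-IRI arrays lay close together and IRI 1 fell among them, and the difference was 0.61 ± 0.27 (SE; adjusted p = 0.351); with array weights it was 0.82 and passed (0.0458). Il21r, the IL-21 receptor of lymphocytes, measured 1.95, 2.41 and 2.97 on IRI arrays 1 to 3, against 1.94, 0.67, 2.41 and 0.94 on non-IRI arrays 1 to 4, with -3.52 on the in vitro array. Non-IRI 3 lay above IRI 1 and just above IRI 2, non-IRI 1 lay just below IRI 1, and the difference was 0.95 ± 0.46 (SE; adjusted p = 0.383). Il10ra, the ligand-binding chain for IL-10, measured -3.60, -2.88 and -2.31 on IRI arrays 1 to 3, against -3.28, -4.99, -3.20 and -4.13 on non-IRI arrays 1 to 4, with -6.44 on the in vitro array. Its arrays overlapped between groups, with a difference of 0.97 ± 0.49 (SE; adjusted p = 0.405).

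Among the remaining ligands, Il6, an inducer of the acute phase response, measured -5.10, -3.96 and -5.31 on IRI arrays 1 to 3, against -4.95, -2.79, -2.22 and -4.28 on non-IRI arrays 1 to 4, with -1.61 on the in vitro array. It was above background on 1 of 3 IRI arrays and on all 4 non-IRI arrays, with a difference of -1.23 ± 0.68 (SE; adjusted p = 0.451). Il16, a chemoattractant for CD4+ cells, measured -2.32, -2.38 and -1.65 on IRI arrays 1 to 3, against -2.22, -2.94, -2.40 and -2.60 on non-IRI arrays 1 to 4, with -4.88 on the in vitro array. Groups overlapped, with a difference of 0.42 ± 0.25 (SE; adjusted p = 0.494). The 12 ligands had a median difference of 0.11 and the 20 receptors of 0.27, beside 0.01 over all genes. Neither role had a member past the test; 7 of 12 ligands and 14 of 20 receptors had positive differences.

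The second comparison set the mean of both liver groups against the in vitro array, a single array whose spread was taken to equal that of the liver arrays. Il1b and Il18 were not above background in culture and bright on liver, and receptors passed in both directions. Of the 35 genes 18 rose, 4 fell and 13 did not pass, whereas 34.2% of all genes passed (16% rose and 18.1% fell). Ligands rose in 9 of 12 cases with 0 falls, receptors rose in 7 of 20 with 4 falls, and antagonists rose in 2 of 3. The median difference was 3.63 for ligands, 0.98 for receptors and 1.03 for antagonists, against -0.25 for all genes. With genes not above background in vitro set at their bound, the medians were 2.47 for ligands and 0.86 for receptors. With no filter, over all 25 ligands and 28 receptors on the array, they were 0.34 and 0.68, and under normexp 0.77 and 0.39. Scaling to the median of the array gave a median of -0.55 for all genes.

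Detection in culture shapes these counts, since a gene kept through the liver arrays alone had to be higher there. Of 15 genes not above background in vitro, 13 rose, 0 fell and 2 did not pass. Of 20 genes above background in vitro, 5 rose, 4 fell and 11 did not pass. Within those 20, the 4 ligands had a median difference of 0.04 and the 14 receptors of 0.68. All 7 liver arrays lay above the in vitro array for 22 of the 35 genes and below it for 5, beside 24.4% and 40.6% of all genes.

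Il1b, whose array values are given above, was at least 586-fold higher on liver than in vitro (adjusted p = 4.44e-05), and Il18 at least 258-fold (1.16e-06). These bounds set the in vitro array at the lowest signal it had well above background. The adjusted p beside a bound, here and below, comes from the limma fit on the measured signals. In vitro that signal was not well above background, and the p does not test the bound. Il36b, an IL-36 cytokine of the IL-1 family, measured -0.67, -0.71 and -0.68 on IRI arrays 1 to 3, against -0.60, -1.45, -0.79 and -1.22 on non-IRI arrays 1 to 4, with -6.30 on the in vitro array. It was at least 18.7-fold higher on liver (adjusted p = 1.47e-05), with all 7 arrays close together. Il1a was at least 3.83-fold higher (adjusted p = 0.031); its adjusted p was 0.128 with the replicate block, 0.0532 with array weights and 0.0502 with no filter, and for non-IRI minus in vitro alone the difference was 2.24 (0.111).

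Il4, the signature cytokine of type 2 immunity, measured -1.69, -2.0 and -1.49 on IRI arrays 1 to 3, against -2.62, -1.57, -0.60 and -1.71 on non-IRI arrays 1 to 4, with -6.71 on the in vitro array. It was at least 10.5-fold higher on liver (adjusted p = 0.000667), without separation of the liver groups. Il10, an anti-inflammatory cytokine, measured -1.79, -0.80 and -0.39 on IRI arrays 1 to 3, against -1.98, -1.88, -0.51 and -2.20 on non-IRI arrays 1 to 4, with -5.63 on the in vitro array. It was at least 13.5-fold higher on liver (adjusted p = 0.00246). Il24, of the IL-10 family, measured -4.16, -0.91 and -2.93 on IRI arrays 1 to 3, against -2.21, -3.11, -1.37 and -4.12 on non-IRI arrays 1 to 4, with -6.68 on the in vitro array. It was the most scattered ligand on IRI arrays, at least 5.25-fold higher on liver (adjusted p = 0.0361), and it did not pass under the replicate block (0.111), with no filter (0.0573) or when IRI 3 (0.0567) or non-IRI 1 (0.0554) was left out.

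Il16, with the array values given above, was at least 5.85-fold higher on liver (adjusted p = 0.00142). Il17b, of the IL-17 family, measured -1.26, -1.24 and -1.06 on IRI arrays 1 to 3, against -1.01, -1.66, -1.41 and -1.44 on non-IRI arrays 1 to 4, with -3.06 on the in vitro array. It was above background in vitro and rose by 1.78 ± 0.26 (SE; adjusted p = 0.00197). The 3 other ligands above background in vitro did not pass: Il15, a growth factor of NK cells, by 0.34 ± 0.25 (SE; adjusted p = 0.319), Il33 by -0.25 ± 0.40 (SE; adjusted p = 0.654) and Il6 by -2.56 ± 0.95 (SE; adjusted p = 0.0701). Il6 was below the in vitro level on all 7 liver arrays, and passed as a fall with the replicate block (-3.41, adjusted p = 0.0484), under median scaling (-2.87, 0.0398), under normexp with outlier backgrounds set to the median (-0.93, 0.0424) and without non-IRI 3 (-2.79, 0.0364). For Il33 the sign turned under quantile normalization (0.13).

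The 7 receptors that rose were Il2rb, Il7r, Il21r, Il2ra, Il10ra, Il6r and Il13ra1. Il2rb, the signalling chain shared by IL-2 and IL-15, measured 1.73, 1.26 and 1.46 on IRI arrays 1 to 3, against 1.21, 0.53, 1.53 and 0.74 on non-IRI arrays 1 to 4, with -6.50 on the in vitro array. It was at least 79.7-fold higher on liver (adjusted p = 5.45e-06). Il7r, the IL-7 receptor of T cells, measured -1.86, -1.91 and -1.76 on IRI arrays 1 to 3, against -1.72, -1.91, -1.72 and -1.83 on non-IRI arrays 1 to 4, with -6.55 on the in vitro array. Its liver arrays were nearly equal, and it was at least 9.55-fold higher (adjusted p = 3.02e-06), although its 3 kept probes gave differences from 1.37 to 4.73. Il21r was above background in vitro and rose by 5.49 ± 0.64 (SE; adjusted p = 0.000614).

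Il2ra, the high-affinity IL-2 chain CD25, measured -3.34, -3.78 and -3.98 on IRI arrays 1 to 3, against -4.11, -3.90, -3.15 and -3.56 on non-IRI arrays 1 to 4, with -6.60 on the in vitro array. It was at least 2.61-fold higher (adjusted p = 0.00108), and under normexp with outlier backgrounds set to the median the difference was -0.0054 (0.99). Another Il2ra probe of the same transcript was above background on 1 array and was not kept. Its liver minus in vitro difference was 0.018, with most of its signals not above background, so the rise rests on the kept probe alone. Il10ra was at least 3.16-fold higher (adjusted p = 0.0126). Il6r, the ligand-binding chain for IL-6, measured 3.41, 3.38 and 3.55 on IRI arrays 1 to 3, against 3.70, 3.06, 3.51 and 2.90 on non-IRI arrays 1 to 4, with 0.074 on the in vitro array. It rose by 3.30 ± 0.31 (SE; adjusted p = 0.000208), and Il13ra1 by 1.81 ± 0.20 (SE; adjusted p = 0.00041).

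The 4 receptors that fell were bright in culture, and all 7 liver arrays lay below the in vitro array for each. Il6st (gp130), the signalling chain for IL-6, IL-11 and related cytokines, measured 5.58, 5.38 and 5.26 on IRI arrays 1 to 3, against 5.12, 5.50, 5.12 and 5.44 on non-IRI arrays 1 to 4, with 6.99 on the in vitro array. It fell by 1.63 ± 0.24 (SE; adjusted p = 0.00205), opposite to Il6r, its partner chain. Il11ra1 measured 4.52, 3.70 and 3.98 on IRI arrays 1 to 3, against 3.72, 4.42, 3.60 and 4.39 on non-IRI arrays 1 to 4, with 5.48 on the in vitro array. It fell by 1.44 ± 0.41 (SE; adjusted p = 0.03), and it did not pass under the replicate block (0.11) or when IRI 3 was left out (0.0561), nor under quantile normalization (0.0854) or with no filter (0.0557).

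Il1rl1, whose array values are given above, fell by 2.19 ± 0.33 (SE; adjusted p = 0.00235). Il1rl2, the receptor of IL-36 cytokines, measured -1.92, -2.04 and -2.01 on IRI arrays 1 to 3, against -1.98, -1.31, -1.58 and -1.68 on non-IRI arrays 1 to 4, with 0.89 on the in vitro array. It fell by 2.71 ± 0.26 (SE; adjusted p = 0.000232), while its ligand Il36b rose. The other 9 receptors did not pass. For the 7 of them above background in vitro, the differences ran from 0.14 (Il17re, which turned to -0.16 under median scaling) to 1.03 (Il4r). Of these, Il3ra passed without non-IRI 2 (1.01, 0.0199) and with array weights (1.00, 0.0273), and Il4r with array weights (1.26, 0.0488). Il12rb1 and Il13ra2 were not above background in vitro. Il12rb1 was at least 1.36-fold higher on liver (adjusted p = 0.369) and passed without IRI 2 (0.0481), and for Il13ra2 no fold is given. Il1r2 differed by 0.81 ± 0.55 (SE; adjusted p = 0.284); against the same in vitro array its IRI difference was 1.73 (0.0618) and its non-IRI difference -0.11 (0.89).

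Of the antagonists, Il22ra2 was at least 8.15-fold higher on liver (adjusted p = 2.5e-05). Il18bp rose by 1.03 ± 0.32 (SE; adjusted p = 0.0409), but did not pass under the replicate block (0.0737), under median scaling (0.092), quantile normalization (0.0521) or no filter (0.082), or when 1 of 4 arrays was left out: IRI 3 (0.0758), or from non-IRI the arrays 1 (0.0537), 3 (0.0589) and 4 (0.0615). Il1rn differed by -0.12 ± 0.33 (SE; adjusted p = 0.798), with its sign turned under quantile normalization (0.31). Under normexp 17 of the 22 calls of this comparison were lost, and Il1b, Il18, Il2rb, Il21r and Il6r passed. With outlier backgrounds set to the median, normexp lost Il10, Il10ra, Il16, Il1a, Il24 and Il4, beside the turned sign of Il2ra. The leukocyte lists moved in the same comparison, in which 16% of all genes rose. Risen were 13 of 14 macrophage and Kupffer cell genes, 16 of 17 T and NK cell genes, 6 of 6 neutrophil genes and 3 of 4 B cell genes. In the same order, 3, 3, 0 and 1 of these listed genes were above background in vitro. The filter had kept the others through the liver arrays, so a higher level there was built into their selection. The part of these lists in the rises of interleukin genes was not tested.

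**Figure D4:**
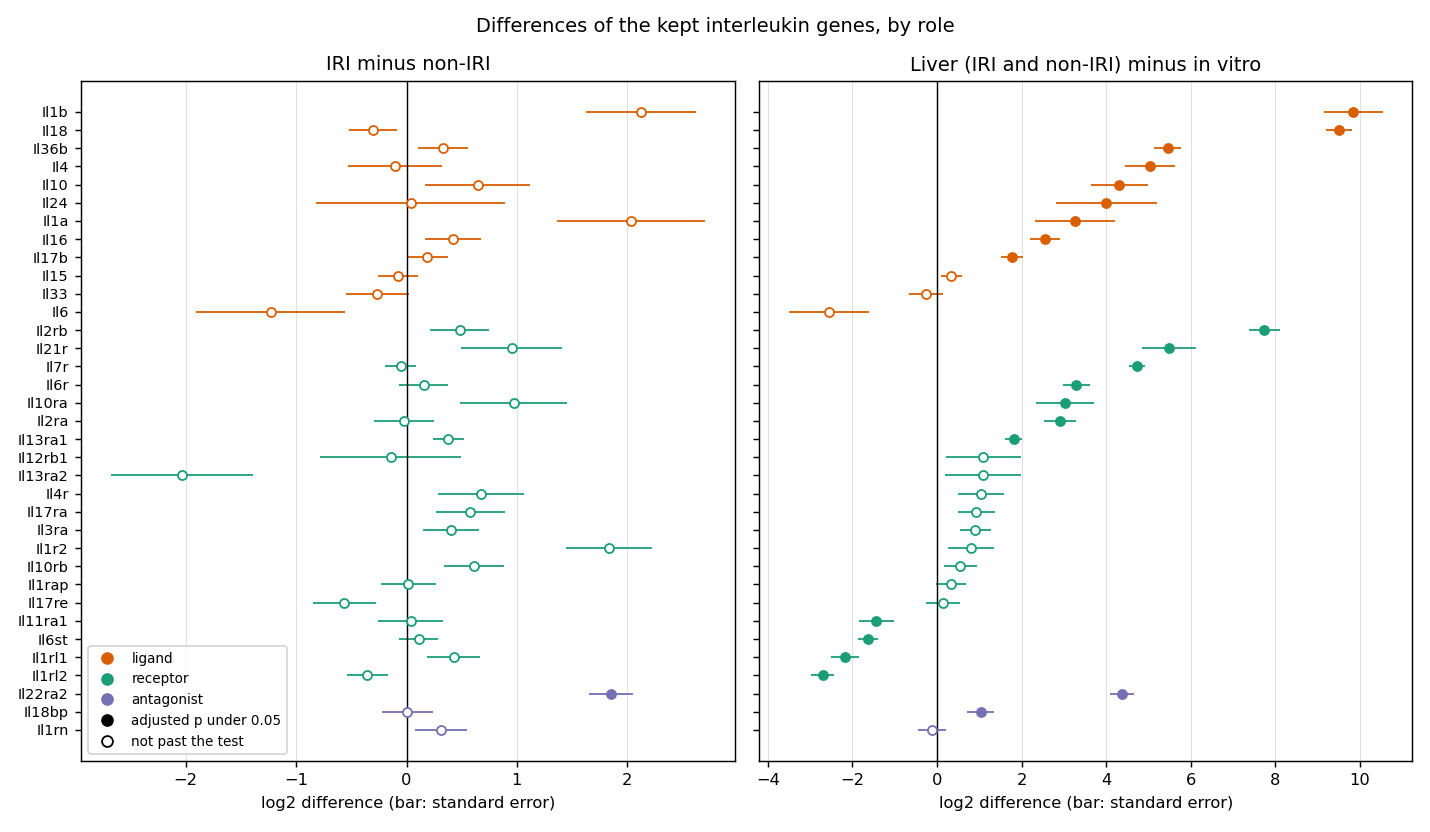
Log2 difference of each kept interleukin gene (rows, grouped by role) for IRI minus non-IRI (left panel) and for liver minus in vitro (right panel), with the standard error as a bar. Filled points passed at an adjusted p under 0.05 and open points did not. On the left Il22ra2 is the single filled point, and on the right 18 filled points lie above 0 and 4, all receptors, below it.

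Against the in vitro array the 2 liver groups can be set side by side; both differences share that array, so they are not independent. The slide that holds the IRI and in vitro arrays allows a comparison within 1 slide. Fitted on that slide alone, IRI minus in vitro gave 16 rises and 4 falls among the interleukin genes, beside 13.2% risen and 11.3% fallen of all genes. The comparison of both liver groups gave 18 and 4. On that slide Il11ra1, Il18bp, Il1a and Il24 did not pass (adjusted p = 0.0604, 0.105, 0.0628 and 0.0805), and Il3ra (1.11, 0.0379) and Il6 (-3.18, 0.0256) did.

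By family, the 11 IL-1 family genes included 5 risen and 2 fallen on liver, the 9 common gamma chain genes 6 risen and 0 fallen, and the 5 IL-10 family genes 4 risen and 0 fallen. The 4 IL-6 family genes were 1 risen, 2 fallen and 1 not past the test. Of the risen genes, 4 of 5 in the IL-1 family, 4 of 6 in the common gamma chain family and 4 of 4 in the IL-10 family were not above background in vitro, so that the filter had kept them through the liver arrays. The 4 IL-1 family receptors were all above background in vitro; 0 rose and 2 fell, with a median of -0.93. No difference between ligands and receptors was tested. These are counts over genes chosen by name, given beside the 16% risen and 18.1% fallen of all genes.

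Genes of the pathways around the interleukins were taken from lists. Their counts stand beside 2.99% of all genes passed in IRI minus non-IRI. On liver against culture the shares over all genes were 16% risen and 18.1% fallen. No list was tested as a set. Of 12 IL-1 family signalling genes, 0 rose and 1 fell in IRI, with a median of 0.32: Irak4, a kinase next to the receptor, averaged -3.78 ± 0.30 in IRI (SD, n = 3) and -2.44 ± 0.13 in non-IRI (SD, n = 4), and fell by 1.33 (adjusted p = 0.00919). On liver against culture 1 of the 12 rose, Sigirr, an inhibitory receptor of the family, by 2.82 (0.000607). Of 6 genes that process IL-1beta and IL-18, 3 rose on liver: Pycard (2.87, adjusted p = 0.000422) and Nlrp3 (3.40, 0.00441), inflammasome components, and Casp1 (1.63, 0.00406), the converting protease. Casp4, of the same list, fell by 1.38 (0.011). In IRI minus non-IRI 0 of these 6 passed.

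Of 15 JAK-STAT genes, 0 passed in IRI minus non-IRI. On liver 3 rose and 1 fell, beside 16% risen and 18.1% fallen of all genes. Ptpn6, a phosphatase of blood cells, rose by 6.43 (adjusted p = 2.56e-05), Stat4, which IL-12 activates, was at least 7.97-fold higher (7.32e-05), and Pias1 rose by 0.90 (0.0177). Ptpn11 fell by 1.04 (0.0306). Of 6 STAT feedback genes 0 passed in IRI minus non-IRI, and on liver Socs2 (at least 3.01-fold, 0.0003) and Socs1 (1.68, 0.00419) were higher while Socs5 fell by 2.14 (0.000418) and Socs4 by 1.18 (0.0319). Of 9 partner cytokines and chains without an Il symbol, 5 rose on liver and 0 fell. Ebi3, a subunit of IL-27 and IL-35, was at least 142-fold higher (2.18e-05), Csf1r, the receptor of CSF-1 and IL-34, at least 286-fold (2.67e-05) and Osm, an IL-6 family cytokine, at least 3.43-fold (0.00578). Ebi3, Csf1r, Osm and Csf2rb, which also rose, were not above background in vitro, nor were Stat4 and Socs2. The filter had kept these genes through the liver arrays, so a higher level there was built into their selection. In IRI minus non-IRI 0 of the 9 partner genes passed.

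Among 9535 genes with a symbol, the profiles most like that of Il1b over the 8 arrays were those of Bhmt, Hba-a3 and Sytl1 (Pearson's r = 0.996, 0.995 and 0.989). For Il18 they were C1qa, C5ar1 and Tasl (0.999 each after rounding), and for Il1r2 they were Hmox1, Ncald and Cpped1 (0.951, 0.95 and 0.947). The in vitro array, far below the others for Il1b and Il18, sets most of these correlations. Over the 7 liver arrays alone, other genes came first: Ubac1 for Il1b (0.99), Anxa3 for Il18 (0.985) and Thap7 for Il1r2 (0.989). These values are descriptions over few arrays and were not tested.

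The 22 interleukin genes that were not kept comprised 13 ligands, 8 receptors and Il36rn, the IL-36 receptor antagonist. Of these, 21 were above background on no array, among them Il2, Il5, Il7, Il11, Il12a, Il12b, Il13, Il17a and Il23a; at these signals no level can be given. Il9r was above background on 1 array. Just inside the limit, Il13ra2 was above background on 3 liver arrays and Il12rb1, Il1a and Il6 on 5. A further 25 interleukin symbols of RefSeq matched no probe, including Il1r1, Il18r1, Il2rg and Il15ra, and were not analysed here. Among the 9 genes with more than 1 kept probe, probes of Il33 gave IRI minus non-IRI differences of -1.37 and -0.27, and those of Il6st of 0.11 to 0.70.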

How the data were processed

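Per the file headers, the deposited scanner files hold spot intensity processed by Feature Extraction 11.0.1.1, while Agilent Feature Extraction 9.1 is named per the submitters' processing notes. The authors' deposited table holds log2 values. Set against the scanner values, it is scaled to each array's 75th percentile and centred on each probe's median (r of 0.9998 or more across 40903 probes; column medians 0.18, -0.066 and -0.05 for IRI 1 to 3, 0.088, -0.15, -0.025 and -0.021 for non-IRI 1 to 4 and 0.16 in vitro).

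Here, log2 processed signal minus the 75th percentile of each array's 43379 non-control spots was used, with outlier spots (45 to 117 per array) left out and spots of a probe averaged. Probes were named through RefSeq tables (17541 of 41012 had a symbol), and the brightest kept probe stood for a gene. A mean per group was fitted on all 8 arrays by lmFit and eBayes (limma 3.58.1, R 4.3.3), with Benjamini-Hochberg adjustment over 21313 genes, or 21302 against in vitro; genes passed at an adjusted p under 0.05. The script was tested on simulated data. The number of arrays limits the precision. A fold is "at least" for a group with 0 arrays well above background: each of its arrays was set at its lowest signal well above background, or its own if higher. The fit and its p-values used the measured signals without that limit.

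Members, lists and roles were chosen with earlier results of these data known. Array values are given for genes that passed, for Il1b, Il1r2, Il18, Il1rn, Il18bp and Il6st, and for the 4 ligands and 6 receptors with the smallest p in IRI minus non-IRI; Il33 was added after its values were seen. Of each list, up to 3 genes with the smallest p among those that passed are named; Casp4, Ptpn11, Socs4, S100a8 and S100a9 were added afterwards. IRI and non-IRI arrays of the same number deviated together (r = 0.188, 0.163 and 0.102, with other pairs at most 0.083). For these arrays the number equals the position on the slide, so the replicate block is given where it changes a call. The in vitro array is also numbered 1 but shares a slide with IRI 1, so its number is not its position. The block grouped it with IRI 1 and non-IRI 1, so block values of liver minus in vitro do not adjust for its slide position. Alternatives covered scaling, background correction, filters, probe and gene choice, the authors' table, variance models, the block and leaving out each array. Normexp was listed for the mean signal and run on the median signal, the column used here. Normexp with outlier backgrounds set to the median and the single-slide fit were chosen after seeing the data.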

Additional observations from a re-analysis of the deposited data

How the results depend on the processing

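Under each alternative the values below changed side, sign or size. The slide as a random block was not run, because every group lies on 1 slide. For IRI minus non-IRI the number of risen interleukin genes was 1, and it was 4 with array weights, 2 with a trended and robust prior, 0 under normexp (where 0 of 21313 genes passed) and 3 under normexp with outlier backgrounds set to the median. Leaving out each array in turn gave 1 to 2 rises and 0 to 1 falls. All genes gave 638 calls in the reported fit, 1822 with array weights and 231 with the replicate block. For liver minus in vitro 18 rose and 4 fell; under normexp 5 rose and 0 fell, under normexp with outlier backgrounds set to the median 11 rose, and with probes above background on all 8 arrays, which keeps 19 of the 35 genes, 5 rose. The cause of these changes was not tested where the construction of the alternative does not show it.

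The ligand median for liver minus in vitro, 3.63 as reported, was 4.15 for IRI minus in vitro (also on 1 slide alone), 3.16 for non-IRI minus in vitro, 3.11 with the replicate block, 0.34 with no filter and with probes above background on all 8 arrays, 0.77 under normexp and 0.58 under normexp with outlier backgrounds set to the median. It was 3.19 to 3.92 without each array. The receptor median, 0.98 as reported, was 0.68 under median scaling, with no filter and with probes above background on all 8 arrays, 0.70 for non-IRI minus in vitro, 0.39 under normexp and 0.28 under normexp with outlier backgrounds set to the median.

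Signs turned for genes that passed in neither setting, apart from Il2ra in liver minus in vitro, which passed as reported and was -0.0054 under normexp with outlier backgrounds set to the median. In IRI minus non-IRI, array weights gave -0.090 for Il18bp, 0.018 for Il33 and 0.083 for Il4. The authors' table gave -0.017 for Il18bp and -0.0065 for Il1rap, and the mean of a gene's probes 0.19 for Il7r. Quantile normalization gave -0.0019 for Il18bp, -0.023 for Il24 and 0.00051 for Il2ra, and the replicate block -0.44 for Il24 and 0.017 for Il2ra. Normexp gave -0.26 for Il10ra, -0.19 for Il16, -0.18 for Il17b, -0.14 for Il17ra, 1.01 for Il17re, -0.072 for Il18bp, -0.28 for Il24, 0.073 for Il33 and -0.0036 for Il36b. With outlier backgrounds set to the median it gave -0.20 for Il18bp, -0.035 for Il1rap, 0.081 for Il2ra and 0.0054 for Il7r. Leaving out each array gave -0.19 to 0.22 for Il11ra1, -0.67 to 0.70 for Il12rb1, -0.16 to 0.0040 for Il15, -0.15 to 0.22 for Il18bp, -0.24 to 0.25 for Il1rap, -0.84 to 0.79 for Il24, -0.20 to 0.15 for Il2ra and -0.44 to 0.24 for Il4.

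In liver minus in vitro, IRI minus in vitro gave -0.14 for Il17re and 0.037 for Il1rn, on both slides and on 1 slide alone, and non-IRI minus in vitro gave -0.11 for Il1r2. Median scaling gave -0.16 for Il17re, the mean of a gene's probes 0.017 for Il1rn, quantile normalization 0.31 for Il1rn and 0.13 for Il33, and the replicate block -0.046 for Il1rap and 0.045 for Il1rn. Normexp gave -0.62 for Il17re, and with outlier backgrounds set to the median -0.20 for Il12rb1 and -0.059 for Il13ra2. The replicate block changed the calls of Il11ra1, Il18bp, Il1a, Il24 and Il6 and no other interleukin gene. In that fit the in vitro array was grouped with IRI 1 and non-IRI 1 by its number, not by slide position.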
